A study of Mus musculus with 12 samples.

Results

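The comparison described here sets livers of mice given concanavalin A (Con A) and mesenchymal stem cells (MSC) against livers of mice given Con A without MSC, both taken at 6 h. Its members are 6 of the 12 libraries of the series, chosen by their labels: 3 of Con A 6 h and 3 of Con A + MSC 6 h. All 6 are labelled as liver of wild type C57BL/6 animals, and both groups received Con A, so no value here stands for an uninjured liver. The other 6 libraries, with and without MSC at 12 h, entered the fit only to share the estimate of spread and to give the difference between the times. The source and dose of the MSC, the dose of Con A, and the animals' age and sex were not given in the labels. Nor do the labels say whether the 3 libraries of a group are separate animals, so the p-values measure the spread between these libraries, which may be technical.

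Con A, a lectin of the jack bean, stimulates T cells and natural killer T cells, and in mice it causes an immune hepatitis driven by interferon gamma and tumour necrosis factor. MSC are fibroblast-like cells of bone marrow, fat or cord tissue that are studied for their dampening of immune reactions. Type I interferons are made when sensors such as RIG-I, MDA5 or TLR3 bind foreign or misplaced nucleic acid. Their receptor activates transcription factors that bind a DNA element called ISRE and switch on antiviral genes such as Isg15, the Ifit family and Rsad2. Interferon gamma works through another receptor and an element called GAS, and its typical targets in liver are Cxcl9, the guanylate-binding proteins and the immunity-related GTPases.

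Upstream sequence is shown for 5 of the interferon-induced genes. All 5 have a match to the motif named next, so they do not stand for the genes without one. RefSeq promoter windows (GRCm38.p6, 250 bases before to 50 after each start site) were searched on both strands for the ISRE core, which is GAAA, any 2 bases and GAAA again. Each run below gives 150 bases, 5′ to 3′ on the strand of the gene, with every match to the core in capitals. Isg15 and Ddx60 are 2 of the genes that fell. Ifit1, Ifit3b and Rsad2 are 3 of the interferon effectors with the largest differences, and none of these 3 passed the test below. The run of Ifit3b starts further upstream than the others, where its matches at -188 and -154 lie.
Isg15, chr4:156200819-156200968, minus strand, bases -150 to -1: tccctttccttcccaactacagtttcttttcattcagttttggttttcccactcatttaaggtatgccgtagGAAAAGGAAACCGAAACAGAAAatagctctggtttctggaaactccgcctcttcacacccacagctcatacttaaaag
Ddx60, chr8:61927937-61928086, plus strand, bases -150 to -1: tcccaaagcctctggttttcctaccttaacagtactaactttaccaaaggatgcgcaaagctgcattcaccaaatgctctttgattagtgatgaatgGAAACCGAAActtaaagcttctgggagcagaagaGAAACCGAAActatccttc
Ifit1, chr19:34640739-34640888, plus strand, bases -150 to -1: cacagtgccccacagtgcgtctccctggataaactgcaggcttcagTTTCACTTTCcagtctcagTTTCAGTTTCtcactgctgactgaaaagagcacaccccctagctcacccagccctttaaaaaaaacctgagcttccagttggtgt
Ifit3b, chr19:34607737-34607886, plus strand, bases -220 to -71: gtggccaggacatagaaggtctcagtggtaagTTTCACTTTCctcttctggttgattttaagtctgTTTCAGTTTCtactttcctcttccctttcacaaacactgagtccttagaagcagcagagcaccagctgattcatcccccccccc
Rsad2, chr12:26456453-26456602, minus strand, bases -150 to -1: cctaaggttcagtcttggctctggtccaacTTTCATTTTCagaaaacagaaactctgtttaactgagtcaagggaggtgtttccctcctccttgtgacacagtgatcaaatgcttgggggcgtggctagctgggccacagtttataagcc

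In Isg15 the capitals hold 3 overlapping matches, which start 78, 72 and 66 bases before the start site (-78, -72 and -66). Ddx60 has 2 separate matches, at -53 and -19, with the same letters. Of the 23 type I interferon effectors tested, 18 had a window in the table and 10 of these 18 held the ISRE core in at least 1 window. Of all 27025 genes with windows of the same length, 3.993% held it, and of the genes tested 3.997% did. The GAS motif TTCNNNGAA was found in 4 of the 18 genes, against 9.554% of all genes with a window and 8.429% of those tested, and the NF-kB motif (GGGA, any base, TTTCC) in none, against 0.4662% of all genes with a window. In Bst2 a GAS match and an ISRE match overlap. Of the 14 entries that passed the test below, 6 had a window, the ISRE core was in those of Isg15, Ddx60 and Slc25a22, and the GAS motif in those of Cyth1 and Pik3c2g. A match is a run of letters and not a shown binding site.

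The 6 libraries held 30453323 to 33546893 counts, and 3 counts in a library corresponded to 0.0991 to 0.119 CPM (counts in a library of 1e6, scaled by TMM factors). Albumin (Alb) stood at 51982 to 71961 CPM in all 6, as liver RNA should. Mitochondrially encoded genes took 8.46 to 12.1% of counts without MSC and 10.8 to 11.9% with MSC. In a principal component analysis of 500 genes with high variance, the leading axis held 36.34% of the variance. On it, Con A replicates 2 and 3 lay at 31.3 and 22.7, the MSC libraries at -10.5, -18.6 and -24.7, and Con A replicate 1 between them at -0.34. Replicate 1 was thus the Con A library nearest to the MSC group, and the results below are given with and without it where it matters. It was picked by these same values. Leaving it out can therefore widen the difference between the groups, and results without it are no independent support.

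Few genes passed a test across the whole table, and most of those that did were lower with MSC. Of 14275 entries tested with the edgeR quasi-likelihood test, 14 passed an adjusted p of 0.05 (0.0981%), 11 of them lower (0.0771%) and 3 higher (0.021%). Every adjusted p in the text comes from that test with Benjamini-Hochberg adjustment over all entries unless another tool is named. At an unadjusted p under 0.05 stood 628 entries higher and 933 lower, and the median log2 difference of all entries was -0.01. Of all entries 7247 had a log2 difference below 0 and 7018 above 0. Without Con A replicate 1 the same test called 236 entries, all 14 among them, while without any other single library it called 1 to 11. Without Con A replicate 2 it called 11, with 7 of the 14 among them. On the 6 h libraries alone edgeR called 2 entries higher and 0 lower. A replicate block left 4 calls on the 12 libraries and 0 on the 6 h libraries alone. In the 12 h libraries, which share the estimate of spread, mitochondrially encoded genes took 5.59 to 24.9% of counts. DESeq2 on the same 12 libraries called 290 of 14658 (1.98%), again with all 14 among them, 224 lower and 66 higher. The labels give the RNA as from liver tissue, in which fewer cells of a type and less RNA per cell cannot be told apart.

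**Figure D1:**
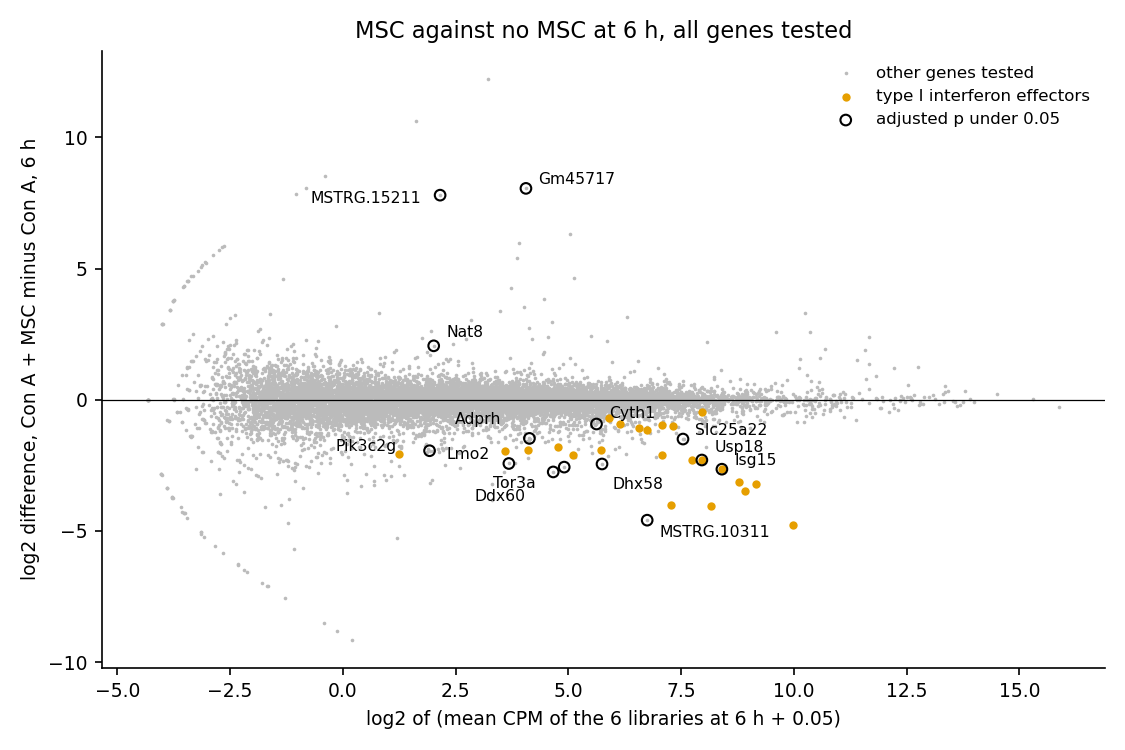
Log2 difference at 6 h (Con A + MSC minus Con A, y axis) against the log2 mean CPM of the 6 libraries (x axis) for the 14275 entries tested. Black rings mark the 14 entries past the adjusted p of 0.05 and orange points the 23 type I interferon effectors, all of which lie below 0.

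Among the 11 entries that fell, Isg15 and Usp18 are on the list of type I interferon effectors and Ddx60 and Dhx58 on that of nucleic acid sensors. Tor3a, described with them, is on neither. Isg15 (chromosome 4) encodes a ubiquitin-like protein that is joined to other proteins in antiviral defence. It was measured at 312, 832 and 610 CPM in Con A replicates 1 to 3 and at 114, 67.5 and 98.9 CPM with MSC, so the highest MSC library lay below the lowest Con A library. The log2 difference was -2.64 (SE 0.37, adjusted p = 0.0186). Usp18 (chromosome 6), the protease that removes Isg15 from its targets and restrains the type I interferon receptor, stood at 242, 601 and 399 CPM against 109, 57.6 and 86.5 CPM. It fell by 2.29 on the log2 scale (SE 0.35, adjusted p = 0.0331), with no overlap between the groups.

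Ddx60 and Dhx58 encode helicases that work with the RNA sensors. Ddx60 (chromosome 8) was at 18.9, 77.6 and 35.7 CPM without MSC and at 8.63, 4.06 and 7 CPM with MSC, a log2 difference of -2.75 (SE 0.44, adjusted p = 0.0438). Dhx58 (chromosome 11), also called LGP2, was at 48.8, 164 and 59.5 CPM against 16.2, 13.4 and 20.3 CPM, and fell by 2.45 on the log2 scale (SE 0.40, adjusted p = 0.0438). Tor3a (chromosome 1), an interferon-induced ATPase of the torsin family, was at 27.6, 79.5 and 46.8 CPM against 11.4, 5.82 and 8.78 CPM. Its log2 difference was -2.57 (SE 0.38, adjusted p = 0.025). In all 5 genes Con A replicate 1 was the lowest and replicate 2 the highest of the Con A libraries.

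The other named genes that fell have no shared textbook role. Slc25a22 (chromosome 7), a mitochondrial carrier for glutamate, was at 206, 309 and 311 CPM without MSC and at 89.8, 107 and 95.9 CPM with MSC. Its log2 difference was -1.50 (SE 0.19, adjusted p = 0.0115). Lmo2 (chromosome 2), a transcription co-regulator of blood and endothelial cells, was at 12.2, 29.3 and 23.1 CPM against 4.06, 3.49 and 4.46 CPM, and fell by 2.43 on the log2 scale (SE 0.31, adjusted p = 0.0115).

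In Cyth1 and Adprh the Con A libraries lay close together. Cyth1 (chromosome 11), an exchange factor for small ARF GTPases, was at 61.4, 68.8 and 63.4 CPM against 31.9, 35.3 and 34.9 CPM, a log2 difference of -0.92 (SE 0.12, adjusted p = 0.0161). Adprh (chromosome 16), which removes ADP-ribose from arginine, was at 29, 25.6 and 22.8 CPM against 10.5, 6.99 and 10.4 CPM, and fell by 1.47 on the log2 scale (SE 0.20, adjusted p = 0.0161). In Adprh replicate 1 was the highest of the Con A libraries, unlike in the interferon-induced genes. Pik3c2g (chromosome 6), a class II phosphoinositide kinase, was low throughout, at 4.59, 8.29 and 4.93 CPM against 1.91, 1.52 and 1.21 CPM (log2 difference -1.94, SE 0.32, adjusted p = 0.0438). The last entry that fell, MSTRG.10311, is a locus numbered by StringTie with no gene name, at 70.2, 304 and 245 CPM against 14.2, 3.71 and 7.89 CPM (log2 difference -4.59, SE 0.73, adjusted p = 0.0438). It followed the interferon-induced genes in that Con A replicate 2 was the highest and MSC replicate 2 the lowest library.

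Nat8 (chromosome 6), an acetyltransferase that completes mercapturic acid synthesis in detoxification, was the only gene with an established name that rose. It was at 1.79, 1.19 and 1.66 CPM without MSC and at 5.41, 5.65 and 8.25 CPM with MSC, a log2 difference of 2.06 (SE 0.33, adjusted p = 0.0438). It belongs to a family of similar neighbouring genes, between which reads can be shared.

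The other 2 entries that rose went from next to nothing to a clear count. Gm45717, a predicted gene on chromosome 7, had 0, 3 and 7 counts in the Con A libraries and 1029, 931 and 717 with MSC, which is 274 times the level (95% exact interval 149 to 573, counting error only; adjusted p = 0.000104). All 6 libraries at 12 h held 377 to 1097 counts of it, with or without MSC. In GENCODE M21 Gm45717 overlaps Ifitm2 and Ifitm5 on the same strand, and Ifitm2 had 12513, 19942 and 12977 counts against 11213, 11944 and 9473. With the counts of these 3 genes added up, the log2 difference was -0.31 (SE 0.26, adjusted p = 0.753). That sum is mostly Ifitm2 and so does not test Gm45717, and whether reads were divided differently between the overlapping genes was not tested. MSTRG.15211, another unnamed locus, had 0, 3 and 0 counts against 167, 180 and 374, which is 246 times the level (95% exact interval 84 to 1200, counting error only; adjusted p = 0.0115). At 12 h it held 24 to 61 counts without MSC and 4 to 35 with MSC.

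In the same annotation Adprh, Dhx58, Lmo2 and Usp18 each overlap a gene of the opposite strand, and Cyth1 and Pik3c2g overlap small predicted genes of their own strand. The labels do not say whether the libraries keep the strand.

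**Figure D2:**
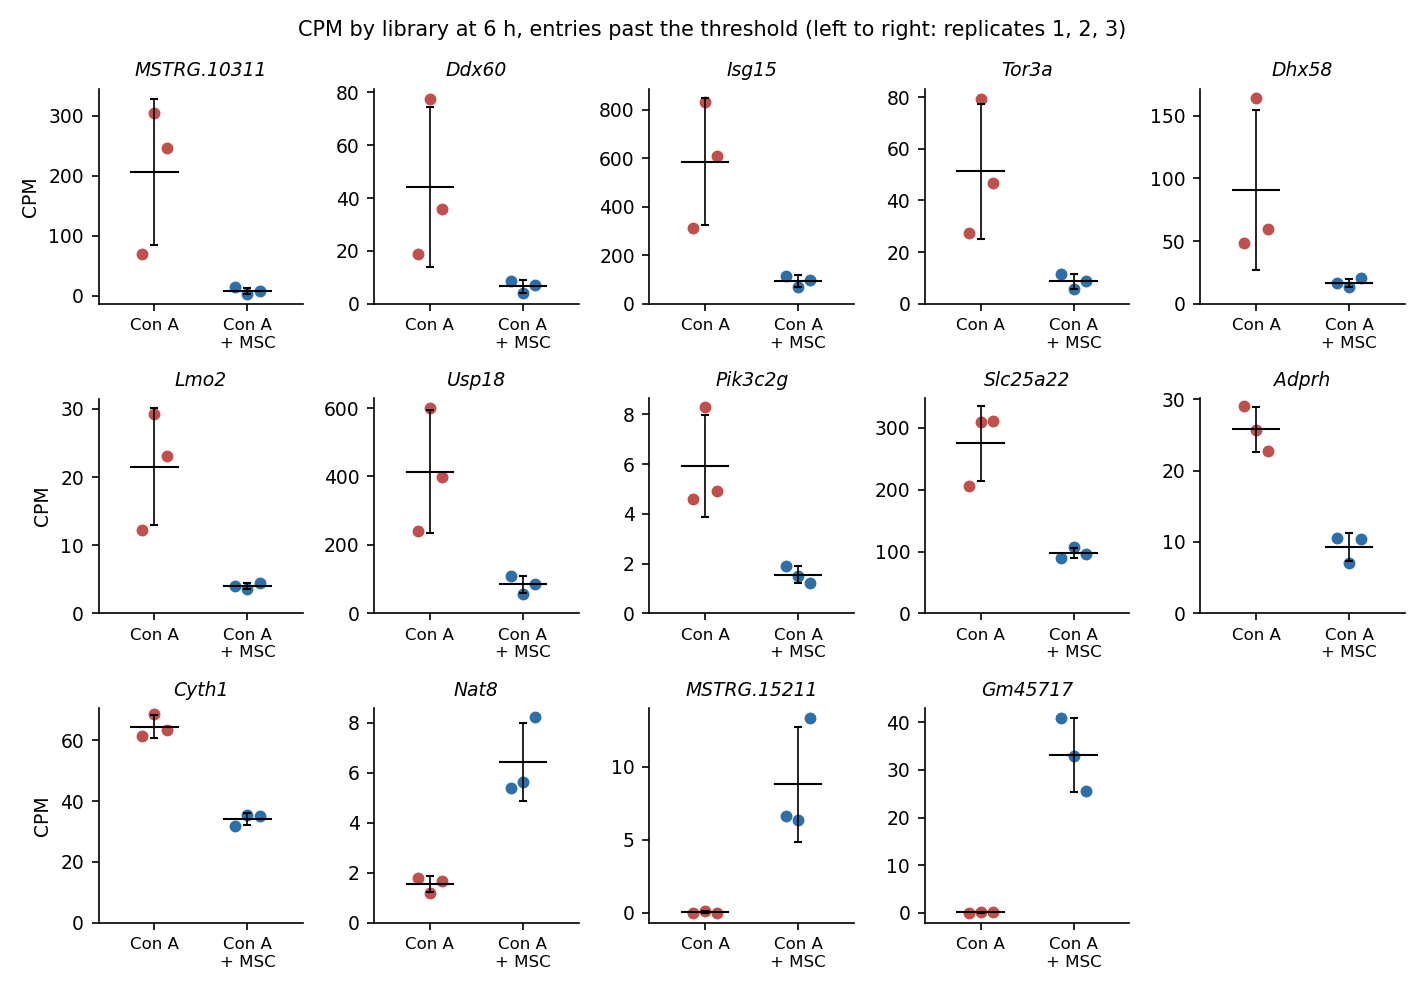
CPM in each of the 6 libraries for the 14 entries past the threshold, from the largest decrease to the largest increase, with replicates 1, 2 and 3 from left to right in each group (red, Con A; blue, Con A + MSC; line and bar, mean ± SD). In no panel do the groups overlap, and the Con A libraries of the interferon-induced genes are spread more widely than those of Cyth1 or Adprh.

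Of the 23 type I interferon effectors tested, Isg15 and Usp18 fell, where 0.0771% of all entries did, and 21 did not pass. All 23 had a log2 difference below 0 and an unadjusted p under 0.05, and their median was -2.08, beside -0.01 over all entries. In 20 of 23 (87.0%) every MSC library lay below every Con A library, where 8.34% of all entries did so, and in none did every MSC library lie above, where 8.22% of all entries did so. Calls of single members depended on the setting. DESeq2 called 20 of the 23, where it called 1.98% of all entries. Without Con A replicate 1 edgeR called 15 of the 23, where it called 236 of 14608 entries. But edgeR called 0 on the 6 h libraries alone, with a replicate block, and without any 1 of the other 5 libraries. Of the 25 genes of the list, Mx1 and Mx2 were not analysed here.

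Rsad2, which encodes the antiviral enzyme viperin, had the largest difference, at 351, 3250 and 2294 CPM against 123, 28.6 and 62.5 CPM (log2 difference -4.78, SE 0.90, adjusted p = 0.0545). Cmpk2, its neighbour and a mitochondrial nucleotide kinase, was at 96.8, 919 and 598 CPM against 52.2, 13.8 and 31 CPM (adjusted p = 0.053). For both genes the gap between Con A replicate 1 and the highest MSC library was small beside the spread of the Con A libraries. The Ifit proteins bind foreign RNA and block its translation. Ifit1 was at 357, 1177 and 1588 CPM against 176, 52.8 and 110 CPM (adjusted p = 0.0775), and Ifit3b at 83.1, 554 and 245 CPM against 25.6, 8.4 and 20.5 CPM (adjusted p = 0.0626). Ifit3b and Ifit3 are near copies, so reads may be divided between them.

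The oligoadenylate synthetase family activates RNA decay in infected cells. Oasl1, a member without that enzyme activity, was at 202, 536 and 332 CPM against 97, 41.9 and 76.8 CPM (log2 difference -2.31, SE 0.41, adjusted p = 0.053). Bst2, which tethers budding virus to the cell surface, differed less, at 159, 308 and 175 CPM against 114, 95.4 and 112 CPM (adjusted p = 0.154). Oas3, Ifi44 and Parp14 are the 3 members whose groups overlapped.

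The spread within the groups was itself shared by these genes. Con A replicate 2 was the highest of the 6 libraries in 22 of 23 members and Con A replicate 1 the lowest of its group in 22. MSC replicate 2 was the lowest of the 6 in 22. Con A replicate 2 also stood apart in the summed level of 9 red cell markers, at 563 CPM beside 1392 to 2345 CPM in the rest of the 6. Whether this is linked to its interferon level was not tested. As a mean of log2 CPM over the 23 genes, the Con A libraries stood at 6.39, 8.01 and 7.31 and the MSC libraries at 5.67, 4.64 and 5.20, so the groups did not overlap and the nearest libraries across them were replicates 1 of both. The difference of the group means was -2.06, given here with no test because the list was chosen with results known. Leaving out 1 library at a time moved this interferon level per library to differences of -2.49 to -1.68.

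**Figure D3:**
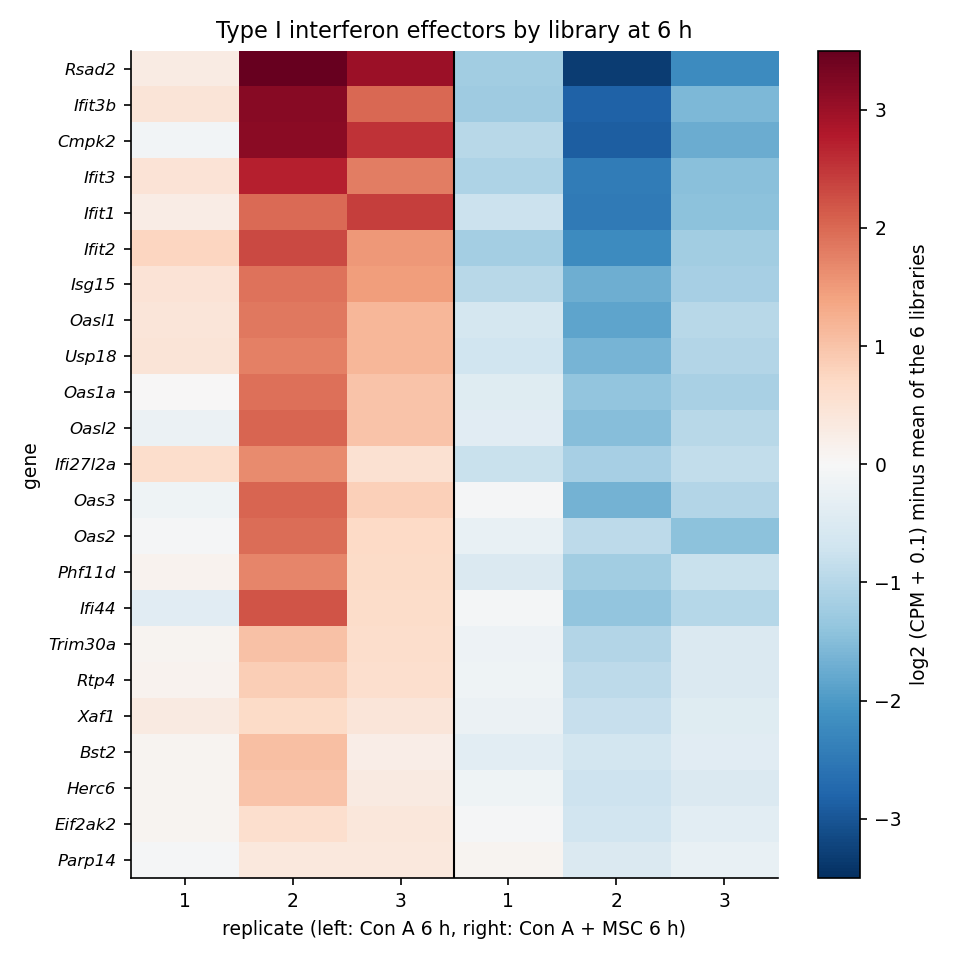
Level of each of the 23 type I interferon effectors (rows) in the 6 libraries at 6 h (columns, replicates 1 to 3 of Con A at the left and of Con A + MSC at the right), as log2 (CPM + 0.1) minus the mean of the 6 libraries; red is above that mean and blue below. Con A replicate 2 is the darkest red and MSC replicate 2 the darkest blue in nearly every row, and Con A replicate 1 is the palest Con A library.

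Of 16 nucleic acid sensors and adaptors, which stand upstream of interferon, Ddx60 and Dhx58 fell and none rose. Of all entries 0.0771% fell and 0.021% rose. In 9 of the 16 every MSC library lay below every Con A library, where 8.34% of all entries did (median log2 difference -1.10). Ddx58, which encodes RIG-I, was at 62.7, 171 and 91.7 CPM against 39.4, 22.9 and 31.8 CPM (log2 difference -1.79, SE 0.31, adjusted p = 0.0511; DESeq2 adjusted p = 5.989e-06). Tlr3, the receptor for double-stranded RNA in endosomes, was at 28.9, 59.3 and 56.8 CPM against 20.6, 11.5 and 16.3 CPM (adjusted p = 0.0511). Ifih1, which encodes MDA5, was at 86.5, 213 and 152 CPM against 61.7, 36.4 and 50 CPM (adjusted p = 0.053). All 3 are themselves interferon-induced genes. The adaptors gave other values: Mavs was at 35.1, 52.5 and 28.3 CPM against 37.6, 47.8 and 34 CPM, and Sting1 at 7.99, 7.66 and 8 CPM against 7.2, 8.61 and 7.53 CPM, with overlapping groups in both.

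None of 16 tested genes for interferon ligands, receptors and signalling passed, and their median log2 difference was -0.13. The type I ligands Ifnb1 and Ifna4 had 0 to 2 counts in any library, too few to be tested. Ifnar1, a chain of their receptor, was at 25.3, 32.3 and 24.5 CPM against 29.71, 31.4 and 29.8 CPM. Irf7, the factor that amplifies type I interferon production, was at 195, 710 and 325 CPM against 138, 92.2 and 128 CPM (log2 difference -1.78, SE 0.40, adjusted p = 0.108). Stat2 was at 92.5, 142 and 120 CPM against 86.3, 88.1 and 82.1 CPM, also without overlap (adjusted p = 0.325).

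Targets of interferon gamma did not share the size of that difference. None of 22 passed, the median log2 difference was -0.26, and in 6 every MSC library lay below every Con A library (8.34% of all entries) and in 2 above (8.22% of all entries). Cxcl9, a chemokine for T cells that interferon gamma induces, was at 6308, 5211 and 6825 CPM against 7746, 5258 and 5698 CPM (log2 difference 0.03, SE 0.28, adjusted p = 0.989). Cxcl10, which both interferon types induce, was at 1568, 966 and 2302 CPM against 1751, 1204 and 1176 CPM (log2 difference -0.23, SE 0.47). Psmb8, an immunoproteasome subunit, was at 74.7, 130 and 93.4 CPM against 67.8, 53.5 and 61.1 CPM (adjusted p = 0.241). Ifng itself was low, at 1.94, 5.08 and 5.24 CPM against 3.38, 1.52 and 2.46 CPM (log2 difference -0.74, SE 0.53, adjusted p = 0.692). No test compared the lists with each other.

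**Figure D4:**
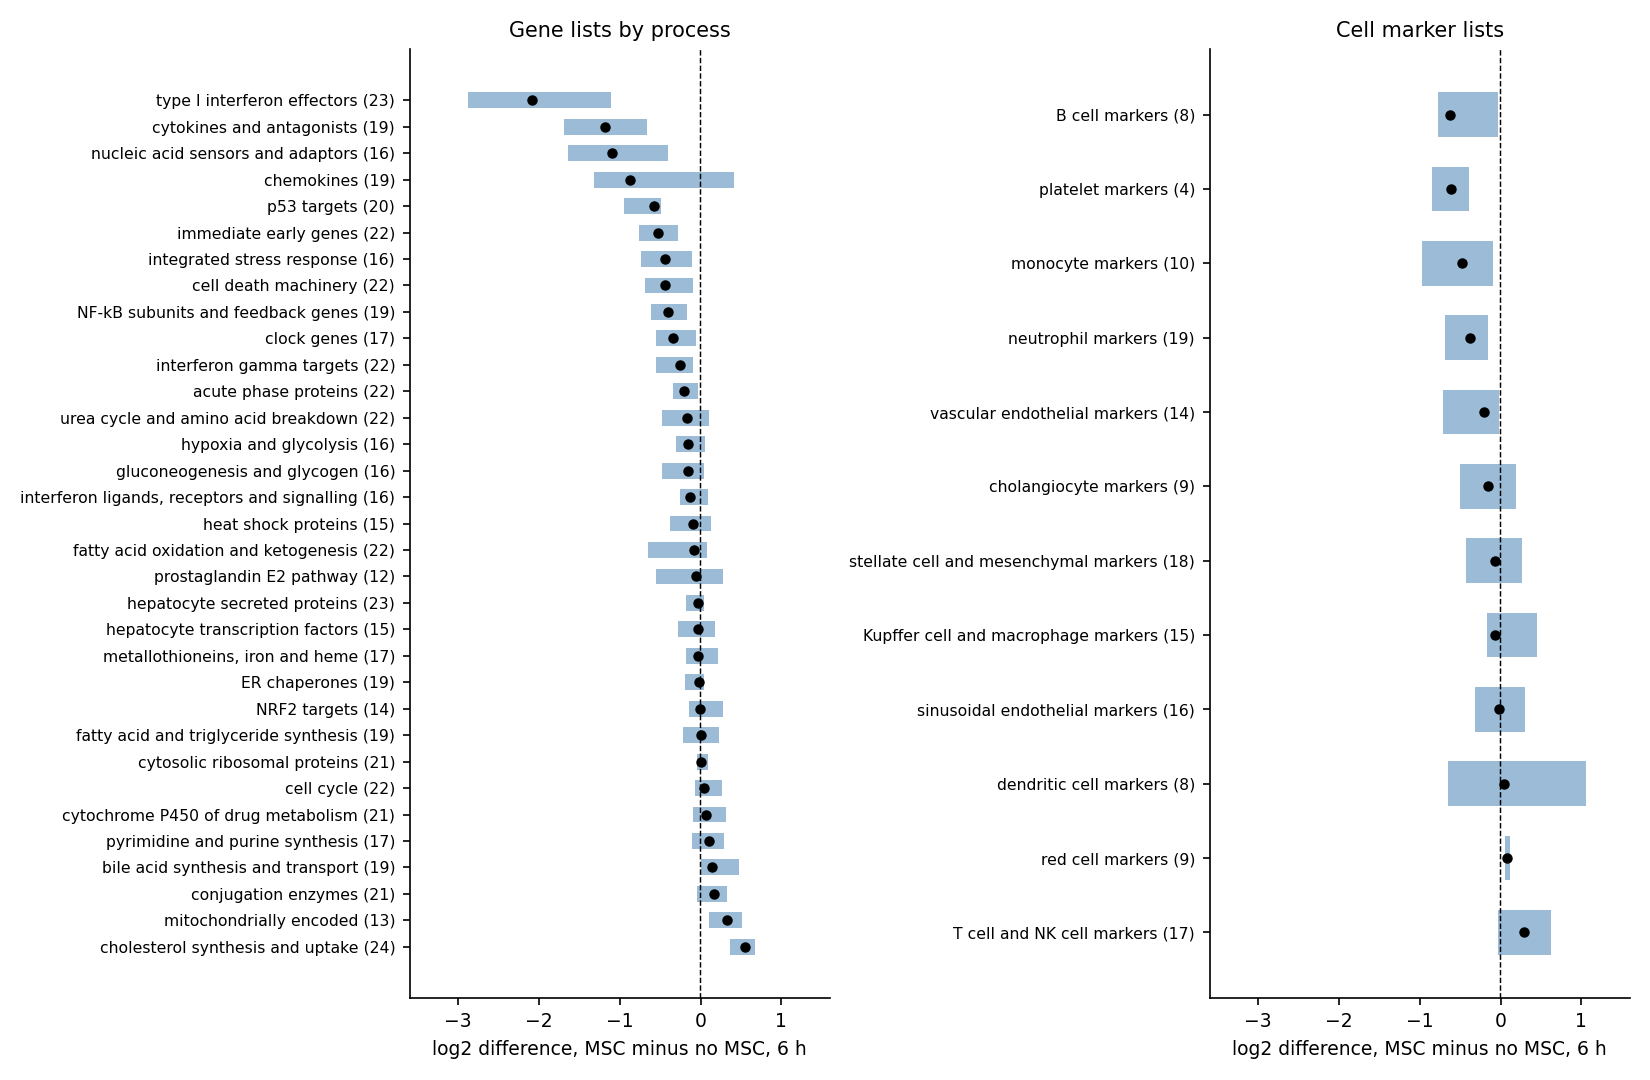
Median (point) and quartiles (bar) of the log2 difference at 6 h, Con A + MSC minus Con A, for the tested members of each gene list, whose number is in brackets; the dashed line is the median of all entries tested. Type I interferon effectors lie lowest with a median of -2.08 and cholesterol synthesis and uptake highest at 0.55.

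None of 19 cytokines and antagonists passed, but all 19 had a log2 difference below 0, with a median of -1.19, and in 8 every MSC library lay below every Con A library, where 8.34% of all entries did. Csf3, the growth factor of neutrophils, was at 9.1, 25.8 and 26.5 CPM against 5.85, 1.94 and 1.39 CPM (log2 difference -2.75, SE 0.60, adjusted p = 0.0966). Tnf was at 4.26, 18.6 and 10.6 CPM against 6.8, 2.72 and 4.36 CPM, with overlapping groups (log2 difference -1.27, SE 0.52, adjusted p = 0.374). The Con A library that overlapped was again replicate 1. Il6 was at 0.896, 2.44 and 3.39 CPM against 1.15, 0.353 and 0.5 CPM (adjusted p = 0.345). Il10, an anti-inflammatory cytokine, was at 1.43, 1.45 and 1.62 CPM against 0.517, 0.176 and 0.393 CPM, which is 40 to 44 against 5 to 13 counts (log2 difference -2.05, SE 0.84, adjusted p = 0.383). Il1b was at 7.88, 16.6 and 24 CPM against 13.4, 3.6 and 7.75 CPM (adjusted p = 0.513).

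Of 19 chemokines none passed, 13 had a log2 difference below 0 and the median was -0.87. In 6 every MSC library lay below every Con A library (8.34% of all entries) and in 2 above (8.22% of all entries). The members named below are lower ones, while 6 had a log2 difference above 0, up to 1.15. Ccl5, which draws T cells, was at 15.3, 29.8 and 21.7 CPM against 3.34, 1.13 and 2.89 CPM (log2 difference -3.18, SE 0.60, adjusted p = 0.053; DESeq2 adjusted p = 5.152e-06). It was the only chemokine that DESeq2 called, where 1.98% of all entries were called. Ccl2, which draws monocytes, was at 86.7, 163 and 141 CPM against 85.9, 42.2 and 49.2 CPM (adjusted p = 0.325). Cxcl1 and Cxcl2 draw neutrophils. Cxcl2 was at 64.7, 173 and 138 CPM against 72.9, 38.2 and 25.7 CPM (adjusted p = 0.301), and Cxcl1 at 248, 422 and 324 CPM against 268, 167 and 109 CPM (adjusted p = 0.358). In both, MSC replicate 1 lay above Con A replicate 1.

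The lists of NF-kB, immediate early and stress genes gave smaller values, and no member passed in any of them. The median log2 difference was -0.40 for 19 NF-kB subunits and feedback genes, -0.53 for 22 immediate early genes and -0.58 for 20 p53 targets. It was -0.44 for 22 genes of the cell death machinery. Every MSC library lay below every Con A library in 4, 10, 6 and 6 of them in that order, and in 8.34% of all entries. Nfkbia, the inhibitor that NF-kB induces against itself, was at 161, 355 and 333 CPM against 222, 159 and 142 CPM (adjusted p = 0.529). Ier2, an immediate early gene, was at 97.8, 75.4 and 179 CPM against 58.3, 47.4 and 48.2 CPM (adjusted p = 0.0909). Cdkn1a, the p53-induced brake on the cell cycle, was at 275, 288 and 264 CPM against 154, 221 and 155 CPM (log2 difference -0.64, SE 0.19, adjusted p = 0.195).

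Acute phase proteins are secreted by hepatocytes in inflammation, and none of 22 passed (median log2 difference -0.20). In 9 of the 22 every MSC library lay below every Con A library (8.34% of all entries) and in 0 above (8.22% of all entries). Saa2 was at 6197, 5224 and 5938 CPM against 4794, 4632 and 3797 CPM (adjusted p = 0.629). Lcn2 was at 4678, 6012 and 5184 CPM against 4499, 4298 and 3950 CPM (adjusted p = 0.8), also without overlap.

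In hepatocyte metabolism the cholesterol list had the highest median of the lists, 0.55, with 23 of 24 members above 0 and none past the threshold. In 7 of the 24 every MSC library lay above every Con A library, where 8.22% of all entries did. Hmgcs1, which makes the precursor of mevalonate, was at 116, 56.2 and 57.3 CPM against 115, 170 and 250 CPM, so Con A replicate 1 lay within the MSC range (log2 difference 1.22, SE 0.38, adjusted p = 0.24). Srebf2, the transcription factor that controls the pathway, was at 46.7, 43.6 and 39.3 CPM against 54.6, 55.6 and 59.2 CPM (log2 difference 0.39, SE 0.14, adjusted p = 0.297). Insig1, the sterol-sensitive brake on that factor, was at 119, 94.4 and 84.8 CPM against 140, 150 and 167 CPM (adjusted p = 0.248).

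Of 22 genes of the urea cycle and amino acid breakdown Slc25a22 fell and none rose, where 0.0771% of all entries fell and 0.021% rose. In 6 every MSC library lay below every Con A library, where 8.34% of all entries did, and in none above, where 8.22% did. Slc25a15, the ornithine carrier of the urea cycle, was at 204, 216 and 187 CPM against 95.8, 127 and 111 CPM (log2 difference -0.86, SE 0.22, adjusted p = 0.156). Asl, which splits argininosuccinate, was at 474, 563 and 504.3 CPM against 315, 316 and 270 CPM (adjusted p = 0.221). Cps1, the first enzyme of the cycle, had overlapping groups, at 2476, 1424 and 1853 CPM against 2075, 2319 and 2298 CPM. Pklr, the liver pyruvate kinase, was at 140, 128 and 143 CPM against 36.4, 52.5 and 77.9 CPM (log2 difference -1.30, SE 0.25, adjusted p = 0.0626). It overlaps Hcn3 on the opposite strand, and Hcn3 was at 6.81, 3.57 and 8.48 CPM against 1.43, 1.31 and 2.11 CPM.

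Several genes were near the threshold on the higher side. Cad, the enzyme that starts pyrimidine synthesis, was at 4.69, 3.57 and 4.97 CPM against 10.7, 9.25 and 10.5 CPM (log2 difference 1.21, SE 0.22, adjusted p = 0.053). Of the 17 genes of pyrimidine and purine synthesis none passed, and in 4 every MSC library lay above every Con A library, where 8.22% of all entries did (median log2 difference 0.11). Dsc2, a desmosomal cadherin, was at 17.3, 15.6 and 18.3 CPM against 35.4, 30.5 and 37.2 CPM (log2 difference 1.01, SE 0.18, adjusted p = 0.053). Rtkn was at 3.76, 2.41 and 1.66 CPM against 7.83, 7.24 and 6.96 CPM (log2 difference 1.49, SE 0.26, adjusted p = 0.053). Amd1, a decarboxylase of polyamine synthesis, was at 12.9, 12.3 and 10.9 CPM against 19, 20.3 and 23.8 CPM (adjusted p = 0.053). DESeq2 called Cad, Dsc2, Rtkn and Amd1 higher (adjusted p = 0.0002603, 0.00031, 4.129e-05 and 0.0003265).

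On the lower side Znfx1, an RNA helicase that is itself interferon-induced, was at 198, 380 and 261 CPM against 119, 76.6 and 98.7 CPM (log2 difference -1.51, SE 0.26, adjusted p = 0.0511). Dot1l, the histone methyltransferase for H3K79, was at 67.7, 101 and 118 CPM against 50.8, 35.5 and 38.8 CPM (log2 difference -1.20, SE 0.20, adjusted p = 0.0511). Adm, which encodes the vessel-dilating peptide adrenomedullin, was at 69.4, 132 and 173 CPM against 32.3, 27.6 and 29.6 CPM (log2 difference -2.06, SE 0.42, adjusted p = 0.0727).

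Cell marker lists were read as RNA levels and not as cell numbers, and of their members only Lmo2 passed. The counts of members below 0 stand beside 7247 of all 14275 entries. For 19 neutrophil markers the summed level was 2580 to 2850 CPM without MSC and 1950 to 2670 with MSC. Of these 19, 16 had a log2 difference below 0, and Elane and Mpo were at 0 in at least 1 library. That sum does not stand for the list as a whole. S100a9 gave only 53.2, 39.7 and 78.8 CPM of it without MSC and 63, 13.7 and 25.2 CPM with MSC. As a mean of log2 CPM the 19 markers stood at 2.67, 2.60 and 3.29 against 3.11, 1.88 and 2.16. For 17 T cell and NK cell markers the sum was 48 to 82.1 against 33.1 to 93.2 CPM, with 5 of 17 below 0 and Cd3e at 0 in 1 library. For 15 Kupffer cell and macrophage markers the sum was 108 to 175 against 91.1 to 169 CPM, with 9 of 15 below 0. For 8 dendritic cell markers the sums did not overlap, at 171 to 323 against 108 to 130 CPM, with 4 of 8 below 0 and Clec9a and Xcr1 at 0 in at least 1 library. Most of those sums is Bst2, which is also in the interferon list. Platelet markers also had sums that did not overlap, at 14.4 to 20.9 against 10.1 to 12.7 CPM, with 4 of 4 below 0. For 10 monocyte markers the sum was 88.6 to 111 against 45.6 to 92.3 CPM, with 7 of 10 below 0, 4 of them at an unadjusted p under 0.05, and Ms4a4c at 0 in at least 1 library. Siglech, which marks the plasmacytoid dendritic cells that make type I interferon, had 0 to 10 counts and was not tested. The part of these cell types in the interferon result was not tested.

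Among 16 sinusoidal endothelial markers Lmo2 fell, where 0.0771% of all entries did, and the median log2 difference was -0.02. Lyve1, a hyaluronan receptor of these cells, was at 20.3, 18.3 and 21.6 CPM against 10.1, 9.99 and 9.85 CPM (log2 difference -1.01, SE 0.33, adjusted p = 0.256). Stab2, another scavenger receptor of the same cells, overlapped between the groups at 26.9, 12.4 and 14.5 CPM against 24.1, 18.6 and 27.2 CPM. Of 14 vascular endothelial markers none passed, and 5 lay lower in every MSC library, where 8.34% of all entries did. Selp, the adhesion molecule P-selectin, was at 16.1, 13.1 and 19.4 CPM against 9.7, 7.02 and 8.14 CPM (adjusted p = 0.146), and Sele, E-selectin, at 14.9, 7.89 and 17.3 CPM against 5.21, 4.69 and 5.21 CPM (adjusted p = 0.285).

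The difference with MSC was not the same at 12 h for some of these genes. The test of the difference between the times, in 1 model over all 12 libraries, called 18 of 14275 entries (0.126%), and among the 14 entries past the threshold at 6 h it called Gm45717, MSTRG.15211, Lmo2, Adprh and Nat8. Lmo2 was at 21.5 ± 8.66 CPM (SD, n = 3) without MSC and 4.00 ± 0.49 with MSC at 6 h, and the log2 difference was 0.50 at 12 h (adjusted p of the change between the times = 0.0201). Nat8 was higher with MSC at 6 h and had a log2 difference of -1.20 at 12 h (adjusted p of the change = 0.0191). For the interferon effectors the median log2 difference at 12 h was -0.17, but none of the 23 passed the test of a change between the times. Isg15 had a log2 difference of -0.83 at 12 h (adjusted p of the change = 0.108). In 22 of the 23 the mean without MSC was lower at 12 h than at 6 h, and in 16 the mean with MSC at 6 h lay within a factor of 2 of the mean without MSC at 12 h.

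**Figure D5:**
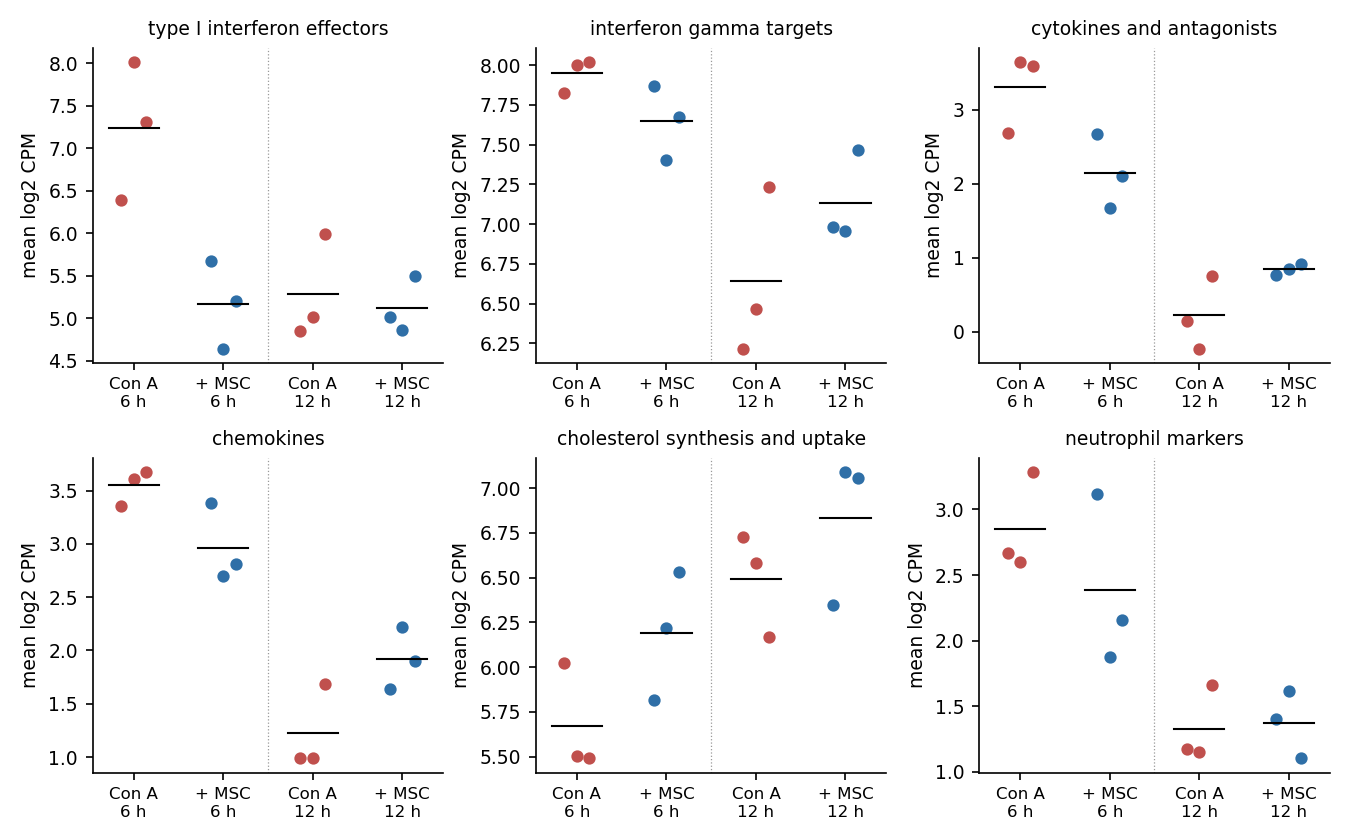
Mean log2 CPM over the tested members of 6 gene lists in each of the 12 libraries (red, Con A; blue, Con A + MSC; line, mean of 3; the dotted line parts 6 h from 12 h, and the y axes differ). For the type I interferon effectors the MSC libraries at 6 h, 4.64 to 5.67, lie in the range of the 12 h libraries, 4.85 to 5.99, apart from MSC replicate 2, which lies below it.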

How the data were processed

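Per the labels' protocols, mRNA from liver was captured with oligo(dT) beads and primed with random hexamers. The series text speaks of hepatocyte RNA and the sample labels of liver tissue. Tools listed in the submitters' processing notes are StringTie 2.1.2, Bowtie2 2.2.5 and HISAT2 2.0.4, with the genome build GRCm39. Which program counted reads, and on which annotation, is not given in the sources used here. The deposited values are whole-number counts of 23574 entries, 1715 of them StringTie loci, in 12 columns matched to samples by name.

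Entries passing filterByExpr (14275, leaving 9299 untested) were fitted with edgeR 4.0.16 (R 4.3.3) after TMM scaling, with a mean for each of 4 groups, and tested two-sided (quasi-likelihood, Benjamini-Hochberg, 0.05, no fold threshold). CPM, SD and log2 differences come from this fit, and the SE is the log2 difference divided by the root of F. The script was tested on simulated data. Alternatives were DESeq2 1.42.0, limma 3.58.1 (voom), other scalings and filters, a replicate block, and leaving out each library.

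The members and the 45 gene lists (787 genes, 757 tested) were chosen with earlier results of these data known, so a list is described by counts and its median, with no test. Named genes are all entries past the threshold, up to 15 genes a direction by smallest p (groups not overlapping, at least 5 CPM in the higher group, established symbol), up to 4 members a list, and a panel of 30 genes. The text prints those that its results turn on. Rsad2, Ifit1, Ifit3, Ifit3b, Ifi44, Oas3, Parp14, Ifih1, Mavs, Sting1, Ifnar1, Cps1 and Stab2, the markers at 0, and Ifitm2 and Ifitm5 fall outside this rule and were chosen after their values were seen. Promoter sequences are from RefSeq (GRCm38.p6), and overlaps of genes from GENCODE M21. Whether that is the annotation used for counting is not known. Some members of the lists are not reported here.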

Additional observations from a re-analysis of the deposited data

Results flagged for a closer look

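For 8 named genes the difference with MSC at 12 h differed from that at 6 h by the edgeR test of the difference itself. The values are the log2 difference at 12 h minus that at 6 h, so a positive value means that the gene stood relatively higher with MSC at 12 h. Among the entries past the threshold at 6 h the value was -8.30 for Gm45717 (adjusted p = 0.000575), -9.50 for MSTRG.15211 (adjusted p = 0.0098), 2.93 for Lmo2 (adjusted p = 0.0201), 1.71 for Adprh (adjusted p = 0.0433) and -3.26 for Nat8 (adjusted p = 0.0191). Tanc2, a scaffold protein of synapses, had -1.77 (adjusted p = 0.0191), with a log2 difference of 0.98 at 6 h and -0.79 at 12 h. Ccl5 had 5.09 (adjusted p = 0.0433), with -3.18 at 6 h and 1.91 at 12 h. Hpgd, which breaks down prostaglandins, had 2.52 (adjusted p = 0.00912). It was at 98.7, 161 and 138 CPM without MSC and at 81.8, 64.7 and 95.2 CPM with MSC at 6 h, a log2 difference of -0.72, and had 1.81 at 12 h, which passed there (adjusted p = 0.003). In all 8 the log2 difference had opposite signs at 6 h and 12 h. At 12 h only Hpgd and Tanc2 (adjusted p = 0.0332) passed. The adjusted p at 12 h of the others ran from 0.0644 for Nat8 to 0.748 for Gm45717, so a reversal is not shown for them.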

How the results depend on the processing

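The counts of entries past the threshold depended on the tool and on single libraries. Higher and lower entries numbered 66 and 224 with DESeq2 on 12 libraries, 64 and 264 with DESeq2 on the 6 h libraries alone, 2 and 0 with edgeR on those alone (1493 at an unadjusted p under 0.05), 1 and 9 with limma-voom, 4 and 27 with scaling by total count, 7 and 43 with no filter on low counts, and 9 and 30 with a stricter filter. Leaving out 1 library gave 1 to 49 higher and 0 to 187 lower entries, and the largest counts were those without Con A replicate 1. Entries whose difference changed between the times numbered 654 with DESeq2, 33 with limma-voom, 211 with scaling by total count, 45 with no filter, and 5 to 97 when 1 library was left out. The causes were not tested. RLE and upper quartile scaling and robust dispersion kept the counts within a factor of 1.5.

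The deviations of same-numbered libraries from their group means correlated at -0.12, 0.02 and 0.00. Libraries with different numbers gave -0.08 to 0.08. With 3 libraries a group, such values cannot show whether a replicate number marks a shared litter or day. With a replicate block 2 entries were higher and 2 lower, and on the 6 h libraries alone the block left 0 and 0 (1200 at an unadjusted p under 0.05).

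The direction of the 14 entries held under all 18 alternatives. A setting chosen after seeing the data, Gm45717 counted together with Ifitm2 and Ifitm5, gave -0.31, but most of those counts are of Ifitm2 and the value says nothing of Gm45717 alone. Gm45717 stayed past the threshold whichever library was left out, and each of the other 13 lost it in 2 to 5 of the 6 cases. A promoter search with the base after the ISRE core fixed as C (the base before it was not fixed) matched 8 of 18 effectors with a window and 1.124% of the genes tested. Depth limits what can be said of Ifnb1, Ifna4 and Siglech, which had too few counts to be tested.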
